A study of Mus musculus with 189 samples.

Results

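Pou5f1, Sox2, Nanog, Zfp42 and Pecam1 are the genes of the series that mark pluripotent cells of the early mouse embryo and, later, its epiblast. They were chosen by name. They are 5 of the 192 genes assayed, and none is among the 36 whose assays were marked as failed. Transcripts were measured by quantitative PCR on microfluidic chips, in single eggs and blastomeres, in a few pools of blastomeres or whole embryos, and in RNA of embryonic stem cells (ESC). F1 females from C57BL/6 and DBA/2 parents were superovulated and, for embryos, mated to C57BL6 males. No gene was altered and no agent compared, so the groups differ by stage and by how the cells were taken. Embryos were kept in KSOMaa medium at low oxygen, and blastomeres were freed from the zona pellucida with protease, separated with trypsin and picked singly. The main set held 168 samples, which made 58 units, each an oocyte or an embryo but for 1 unit of 11 blastomeres from 2-cell embryos without a name: 11 MII oocytes (mature eggs before fertilization), 14 zygotes, 21 samples of the 2-cell, 7 of the 3-cell, 12 of the 4-cell, 27 of the 8-cell, 26 of the 16-cell and 50 of the 32-cell stage (early blastocyst). Of these, 3 samples each of the 2-, 4- and 8-cell stages were labelled as whole embryos, and all samples of the 16- and 32-cell stages were blastomeres or pools of them. Samples 2c.A.e1, 2c.A.e2 and 2c.A.e3 are labelled as 2-cell blastomeres but carry no blastomere number, so their cell number is not known. The first was averaged with the numbered blastomeres of the same embryo label.

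The fertilized egg first lives on transcripts stored by the mother, and the embryo's own genome takes over as these are lost. Outer cells then become trophectoderm, which forms the placenta, while inner cells form the inner cell mass (ICM), from which epiblast and primitive endoderm arise. Pou5f1 (Oct4) and Sox2 encode transcription factors that bind DNA together at joined octamer and Sox motifs, and Nanog encodes a homeodomain factor needed for the epiblast. Zfp42 (Rex1) encodes a zinc finger protein used as a mark of undifferentiated stem cells. Pecam1 (CD31) encodes an adhesion molecule of the cell surface that is found on endothelium and also on ICM and ESC.

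A level is given here as 30 minus the cycle threshold (Ct) of the gene, less the mean of the same quantity over the control genes Hnrnpr, Ssu72 and Ube2e1. One unit is a PCR cycle, a doubling of transcript at full efficiency, so the scale is log2. A gene that was not detected stands at a Ct of 30 in the table, and its level then depends only on the control genes of that sample. Of the 840 values of the 5 genes in the main set, 97 were of this kind, with levels from −18.1 to −10.46. Each assay has its own primers, so levels were compared between samples and not between genes. The median Ct of the control genes rose from 12.9 in MII oocytes to 17.7 in 32-cell samples. A level relative to control genes does not give the amount of transcript per cell, and it also moves where the control genes themselves change. The blastomeres of a unit were averaged before each comparison. Differences were tested in limma, which borrows strength across genes to estimate variance, with Benjamini-Hochberg adjustment over all retained genes, and passed at an adjusted p below 0.05.

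Between MII oocytes and zygotes none of the 5 genes passed, where 1.92% of all retained genes did (0.641% higher and 1.28% lower in zygotes). None of the 5 reached an unadjusted p below 0.05 either, as 22 of all genes did. Between zygotes and the 2-cell stage 68.6% of all genes passed. Of the 5 genes Nanog and Zfp42 rose there, as 29.5% of all genes did, and Pou5f1 and Pecam1 fell, as 39.1% did. Between the 2- and 4-cell stages Pou5f1 and Sox2 fell, where 32.7% of genes passed (7.05% higher and 25.6% lower). Between the 4- and 8-cell stages Pou5f1, Nanog and Zfp42 rose, as 13.5% of all genes did, and Sox2 fell, as 35.9% did, 49.4% in all. Between the 8- and 16-cell stages Pou5f1 and Nanog rose, where 28.2% of genes passed (19.9% higher and 8.33% lower). Between the dissected embryos of the 16- and 32-cell stages Sox2 and Pecam1 rose, where 10.9% of genes passed (8.97% higher and 1.92% lower). Over the whole course, from MII oocytes to the 9 embryos of the 16- and 32-cell stages, 84.6% of all genes passed. Pou5f1, Nanog and Zfp42 were higher at the end, as 37.8% of genes were, and Pecam1 was lower, as 46.8% were.

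**Figure D1:**
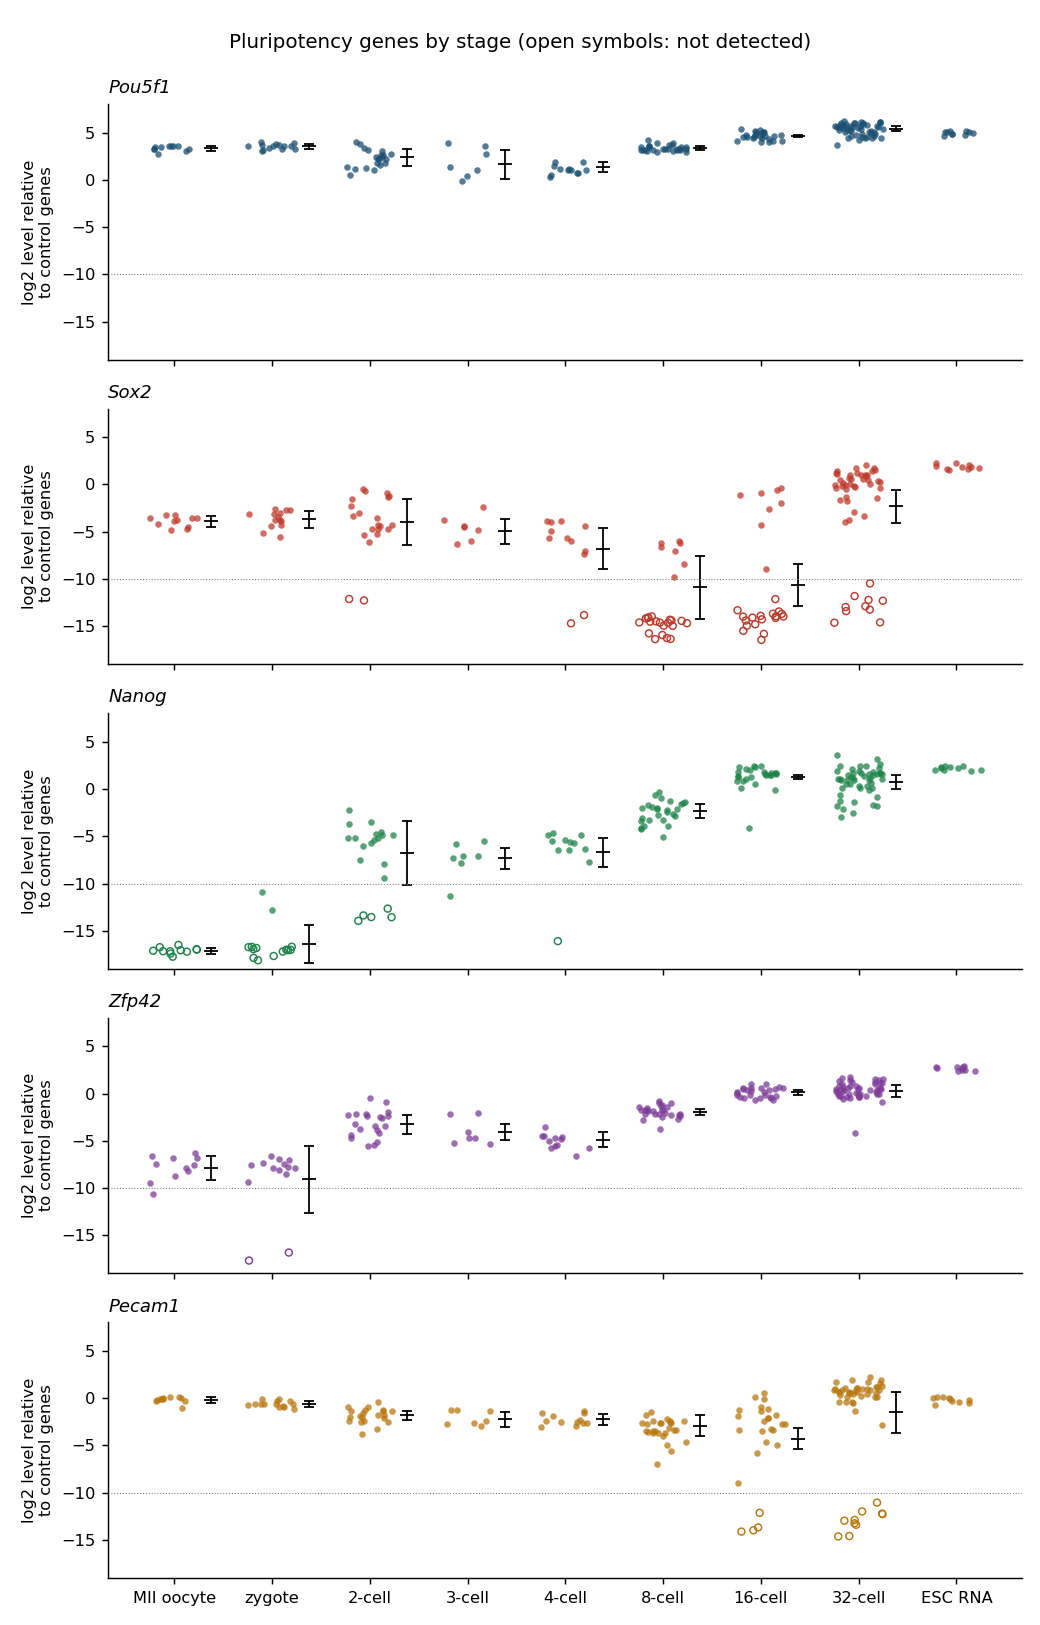
Level of each gene in every sample of the main set and in the ESC RNA samples (log2, relative to the control genes). Open symbols are samples in which the gene was not detected, the black bar is the mean ± SD over oocytes or embryos, and the dotted line is the level of −10 that the study took as its limit of expression. Pou5f1 was detected in every sample, Nanog in none of the 11 MII oocytes, and Sox2 in 7 of 27 samples at the 8-cell stage.

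Pou5f1 was detected in all 168 samples and formed a shallow trough at the 4-cell stage. In MII oocytes its level ran from 2.74 to 3.58 with a median of 3.43, and in zygotes from 3.02 to 4.03 with a median of 3.61. At the 2-cell stage the samples spread from 0.55 to 3.98 around a median of 2.24. In the 12 samples of the 4-cell stage it ran from 0.28 to 1.92 with a median of 1.04, below every oocyte and zygote. At the 8-cell stage it ran from 2.89 to 4.19 (median 3.26), which is above all 4-cell samples and overlaps the oocytes. The 16-cell samples held 4.00 to 5.36 (median 4.67) and the 32-cell samples 3.64 to 6.18 (median 5.44), so these stages overlapped. The 7 samples of the 3-cell stage lay between −0.12 and 3.91.

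As differences between means over embryos, Pou5f1 fell by 1.17 (SE 0.23, limma adjusted p = 1.71e-05) from zygotes to the 2-cell stage and fell by 1.05 (SE 0.29, adjusted p = 0.00460) to the 4-cell stage, where the change without normalization was 0.23 (adjusted p = 0.710). It rose by 2.05 (SE 0.29, adjusted p = 4.53e-08) to the 8-cell stage, where its mean was 0.02 from that of the oocytes. The rise of 1.29 to the 16-cell stage (SE 0.42, adjusted p = 0.0199) rests on 2 embryos of that stage, and it did not pass without embryo 4 (1.37, adjusted p = 0.102) or without embryo 5 (1.21, adjusted p = 0.184). Relative to the sample median it was 0.89 (adjusted p = 0.162), and the sign turned without normalization (−0.073) and in the deposited table, which uses other reference genes (−0.59), where it did not pass. The difference of 0.75 (SE 0.42, adjusted p = 0.262) between the 16- and 32-cell stages did not pass, and passed with every sample kept and the embryo as a random block (0.70, adjusted p = 0.00524). From the lowest stage to the highest, the embryo means were 1.31 at 4 cells, 1.65 at 3 cells, 2.36 at 2 cells, 3.34 in MII oocytes, 3.36 at 8 cells, 3.53 in zygotes, 4.65 at 16 cells and 5.40 at 32 cells. Only the steps from the 2-cell stage to MII oocytes and from zygotes to the 16-cell stage passed among neighbours in that order. For each gene the order came from the same means, which picks close pairs, so a pair that did not pass is no sign of equal levels. Relative to the control genes, Pou5f1 was 1.89 higher at the 16-/32-cell end than in MII oocytes (SE 0.24, adjusted p = 3.74e-10). Without normalization the difference was −2.41, and with the deposited normalized values −1.67, and both passed. The sign of the late changes of Pou5f1 thus depends on what they are measured against, and the scales are not alike. Values without normalization set a whole oocyte against blastomeres or pools of them. The median Ct of the control genes was 12.9 in MII oocytes and 17.7 in 32-cell samples. The deposited values rest on Gapdh, Hspa8 and Lmnb1, whose own assays failed. The part of either in the change of sign was not tested.

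Nanog went from no detection in the egg to detection in every sample of the 8-cell stage and later. It was detected in 0 of 11 MII oocytes, which allows a share of up to 27.3%, and in 2 of 14 zygotes, at −12.79 and −10.85. At the 2-cell stage 16 of 21 samples had it, at levels from −9.38 to −2.21 with a median of −5.17 among these. All 7 samples of the 3-cell and 11 of 12 of the 4-cell stage had it, the latter between −7.71 and −4.66. In the 27 samples of the 8-cell stage Nanog ran from −5.09 to −0.32 (median −2.23), in the 16-cell samples from −4.13 to 2.43 (median 1.53) and in the 32-cell samples from −2.95 to 3.57 (median 1.07). The late stages overlapped each other, and 1 blastomere of 16-cell embryo 5, at −4.13, lay below the other 12 samples of its embryo (−0.15 to 2.43).

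The difference of Nanog between zygotes and the 2-cell stage was 9.61 (SE 0.77, limma adjusted p = 4.32e-16) and that between the 4- and 8-cell stages 4.38 (SE 0.97, adjusted p = 1.51e-04). The size of the first depends on the value given to samples without a signal. Between the 2- and 4-cell stages the difference was 0.05 (SE 0.94, adjusted p = 0.980, 95% interval −1.79 to 1.90). The rise of 3.59 to the 16-cell stage (SE 1.40, adjusted p = 0.0478) did not pass without 16-cell embryo 4 (3.47, adjusted p = 0.25) or embryo 5 (3.72, adjusted p = 0.225). It was also lost in the deposited table (1.72, adjusted p = 0.329), without normalization (2.23, adjusted p = 0.320), relative to the sample median (adjusted p = 0.109), without Ssu72 (adjusted p = 0.0583) and without Ube2e1 (adjusted p = 0.0678). In order, the means were −17.08 in MII oocytes, −16.37 in zygotes, −7.32 at 3 cells, −6.76 at 2 cells, −6.71 at 4 cells, −2.33 at 8 cells, 0.73 at 32 cells and 1.26 at 16 cells. Zygotes and 3 cells, 4 and 8 cells, and 8 and 32 cells differed, and the other 4 neighbouring pairs did not pass.

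Zfp42 also rose at the 2- and 8-cell stages, but was present in the egg. All 11 MII oocytes had it, at −10.60 to −6.32 with a median of −7.55, and 12 of 14 zygotes, at −9.39 to −6.61. It was detected in every later sample. The 2-cell samples ran from −5.52 to −0.52 (median −3.27) and lay above every oocyte and zygote. The 4-cell samples ran from −6.65 to −3.53 (median −4.91), the 8-cell samples from −3.70 to −0.83 (median −1.82), the 16-cell samples from −0.74 to 1.06 (median 0.19) and the 32-cell samples from −4.19 to 1.71 (median 0.42). Zfp42 rose by 5.79 from zygotes to the 2-cell stage (SE 0.86, limma adjusted p = 4.04e-08) and by 2.92 from 4 to 8 cells (SE 1.08, adjusted p = 0.0217), the latter not past the threshold among dissected blastomeres alone (3.27, adjusted p = 0.0961). The difference of −1.59 between 2 and 4 cells (SE 1.05, adjusted p = 0.229) did not pass, and passed with levels below −10 set to −10 (adjusted p = 0.0107), with undetected values left out (adjusted p = 0.00658) and with every sample kept and the embryo as a random block (adjusted p = 0.00527). The same holds for the difference of 2.07 between 8 and 16 cells (SE 1.55, adjusted p = 0.382), with adjusted p of 0.0279, 0.0190 and 3.99e-04 under these settings. Over the whole course Zfp42 rose by 8.11 (SE 0.87, adjusted p = 3.65e-12). Only MII oocytes and the 4-cell stage differed among the neighbours in its order, which ran from zygotes (−9.07) through MII oocytes (−7.86), 4 cells (−4.86), 3 cells (−4.04), 2 cells (−3.27), 8 cells (−1.94) and 16 cells (0.13) to 32 cells (0.28).

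The sequence before the start of Nanog and of Zfp42 is shown because both genes rose at the 2- and 8-cell stages, and that of Sox2 because its course differed. The 250 bases upstream are from RefSeq (GRCm38.p6), written 5′ to 3′ on the strand of the gene. Capitals mark the octamer core TTTGCAT, bound by Oct4, and the Sox motif CATTGT, searched on both strands. The windows lie at chr6:122707239-122707488 (plus strand) for Nanog, chr8:43307010-43307259 (minus strand) for Zfp42 and chr3:34649745-34649994 (plus strand) for Sox2.
Nanog: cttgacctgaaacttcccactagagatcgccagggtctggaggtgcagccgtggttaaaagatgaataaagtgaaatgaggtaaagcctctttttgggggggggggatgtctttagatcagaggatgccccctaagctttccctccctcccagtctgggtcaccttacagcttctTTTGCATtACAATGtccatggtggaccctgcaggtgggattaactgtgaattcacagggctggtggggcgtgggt
Zfp42: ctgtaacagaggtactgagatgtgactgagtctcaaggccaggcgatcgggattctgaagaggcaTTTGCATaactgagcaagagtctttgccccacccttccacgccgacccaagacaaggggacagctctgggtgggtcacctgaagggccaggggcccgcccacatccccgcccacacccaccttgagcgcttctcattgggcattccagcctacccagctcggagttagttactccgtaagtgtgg
Sox2: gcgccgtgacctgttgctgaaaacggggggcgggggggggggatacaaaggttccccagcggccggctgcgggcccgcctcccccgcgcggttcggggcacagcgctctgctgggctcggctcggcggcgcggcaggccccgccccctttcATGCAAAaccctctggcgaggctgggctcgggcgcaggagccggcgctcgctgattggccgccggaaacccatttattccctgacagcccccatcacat
In Nanog an octamer core that begins 75 bases before the start is followed, after a single base, by the Sox motif on the other strand, with no overlap. The octamer core can equally be written as its reverse, ATGCAAA, so the strands named here give no relative orientation of the motifs. Zfp42 has 1 octamer core, 185 bases before the start, and Sox2 has 1 on the other strand, 99 bases before the start, and neither window holds the Sox motif. Of 32851 windows of the same length in the table, 4.12% held the octamer core, 10.7% the Sox motif and 0.642% both. A second listed start of Nanog, with a window at chr6:122707315-122707564, holds the same pair of motifs. The window of Pou5f1 at chr17:35505782-35506031 held neither, and that of a second listed start, at chr17:35508557-35508806, held 1 Sox motif on the other strand, 158 bases before the start. These matches are letters in a window and say nothing of binding in these cells. The genes themselves lie at chr17:35506032-35510777 (Pou5f1), chr3:34649995-34652461 (Sox2), chr6:122707489-122714633 (Nanog), chr8:43295067-43307009 (Zfp42) and chr11:106654213-106715281 (Pecam1) of the same build.

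Sox2 was present in every egg, was lost from most samples at 8 cells and came back in part of the late cells. All 11 MII oocytes had it, between −4.81 and −3.20 (median −3.79), and all 14 zygotes, between −5.52 and −2.65 (median −3.60). At the 2-cell stage 19 of 21 samples had it, from −6.06 to −0.53. At 4 cells it was detected in 10 of 12 samples, from −7.32 to −3.85. At 8 cells it was detected in 7 of 27, from −9.77 to −5.93, and no 8-cell sample reached the lowest oocyte. These 7 were all 3 whole embryos and 4 of 24 single blastomeres, which came from 3 of the 4 dissected embryos. At 16 cells it was detected in 8 of 26 samples, from −8.96 to −0.38 with a median of −1.53 among these, and at 32 cells in 40 of 50, from −3.96 to 2.01 with a median of 0.28. All detected levels of the 32-cell stage lay above −4, and the 10 samples without a signal stood at −14.62 to −10.46 by the Ct of 30 given to them. At 16 cells 2 pools of blastomeres of embryo 4 lay between, at −4.29 and −8.96.

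On the means over embryos Sox2 differed by −0.31 (SE 0.81, limma adjusted p = 0.738) between zygotes and the 2-cell stage, and by −3.31 (adjusted p = 0.00179) without normalization. It then fell by 2.83 (SE 0.99, adjusted p = 0.0265) to the 4-cell and fell by 4.03 (SE 1.02, adjusted p = 7.95e-04) to the 8-cell stage. The first of these did not pass with the embryo as a random block over all samples (adjusted p = 0.226), without normalization (−1.54, adjusted p = 0.354) or when late whole embryos and the 3 left-out samples entered the fit (adjusted p = 0.0545). The difference between 8 and 16 cells was 0.20 (SE 1.47, adjusted p = 0.970). It passed when embryo means were taken on the linear scale (5.83, adjusted p = 6.12e-05), over detected samples alone (5.11, adjusted p = 5.02e-06) or with the left-out samples and late whole embryos added (4.85, adjusted p = 0.00123). It did not pass among dissected blastomeres alone. The 8-cell mean pools 3 whole embryos (mean −7.64) with 4 dissected ones (−13.26), while the 16-cell mean of −10.65 is of dissected embryos only. Whole embryos, outside the main set at the late stages, had Sox2 means of −2.91 at 16 and −2.75 at 32 cells (3 each, difference not tested). From 16 to 32 cells Sox2 rose by 8.32 in dissected embryos (SE 1.47, adjusted p = 4.39e-05), and by 6.77 to 9.87 without either 16-cell embryo. Among detected samples alone that difference was 2.00 (adjusted p = 0.137), with linear means 3.34 (adjusted p = 0.0486) and with whole embryos and left-out samples added 3.56 (adjusted p = 0.0162), so its size depends on the cells without a signal and on the samples taken. From MII oocytes to the late embryos the difference was −0.27 (SE 0.83, adjusted p = 0.752), but 3.43 among detected samples, 3.29 with linear means, −3.83 in the deposited table and −4.57 without normalization, and each of these passed. In the order of stage means, only the 16- and 4-cell stages differed among neighbours: 8 cells (−10.85), 16 cells (−10.65), 4 cells (−6.82), 3 cells (−4.97), 2 cells (−3.99), MII oocytes (−3.91), zygotes (−3.68) and 32 cells (−2.33).

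Pecam1 was present in every sample up to 8 cells, declined from the egg on, and was missing from part of the late cells. It ran from −1.09 to 0.10 in MII oocytes (median −0.07) and from −1.10 to −0.09 in zygotes (median −0.61). The 2-cell samples lay between −3.77 and −0.45 (median −1.79), the 4-cell samples between −3.07 and −1.40 (median −2.46) and the 8-cell samples between −6.96 and −1.46 (median −3.39). None of the 8-cell samples reached the oocytes or zygotes. At 16 cells 22 of 26 samples had it, from −8.97 to 0.49 with a median of −2.25 among these, and at 32 cells 40 of 50, from −2.81 to 2.18 with a median of 0.74 among these. The highest 32-cell samples thus exceeded all oocytes.

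Pecam1 fell by 1.21 (SE 0.41, limma adjusted p = 0.00776) between zygotes and the 2-cell stage, which did not pass without Hnrnpr among the controls (−0.79, adjusted p = 0.0987) or with the embryo as a random block (−1.25, adjusted p = 0.445). The differences of −0.44 between 2 and 4 cells, −0.69 between 4 and 8 cells and −1.35 between 8 and 16 cells did not pass (adjusted p = 0.541, 0.294 and 0.202). In the deposited table the last of these was −3.23 and passed (adjusted p = 1.85e-04). It rose by 2.80 (SE 0.74, adjusted p = 0.00810) from 16 to 32 cells, a rise that did not pass without 16-cell embryo 5 (2.02, adjusted p = 0.275) and passed without embryo 4 (3.59). With whole embryos and left-out samples added it was 0.80 (adjusted p = 0.409), and without normalization 0.83 (adjusted p = 0.475). It was 1.65 in the deposited table (adjusted p = 0.0795) and 2.44 with the embryo as a random block over all samples (adjusted p = 0.128), and passed in neither. The rise is one of dissected embryos. Whole embryos, 3 at each stage, went the other way, with Pecam1 means of −2.12 at 16 and −3.96 at 32 cells, a difference not tested. From MII oocytes to the late embryos Pecam1 fell by 1.93 (SE 0.42, adjusted p = 3.73e-05). With linear means the difference was 0.24, among detected samples 0.13 and with the random block −2.21 (adjusted p = 0.0954), and none of these passed. None of its neighbours in the order of stage means passed, from 16 cells (−4.30), 8 cells (−2.94), 4 cells (−2.26), 3 cells (−2.23), 2 cells (−1.82), 32 cells (−1.49) and zygotes (−0.61) to MII oocytes (−0.19).

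**Figure D2:**
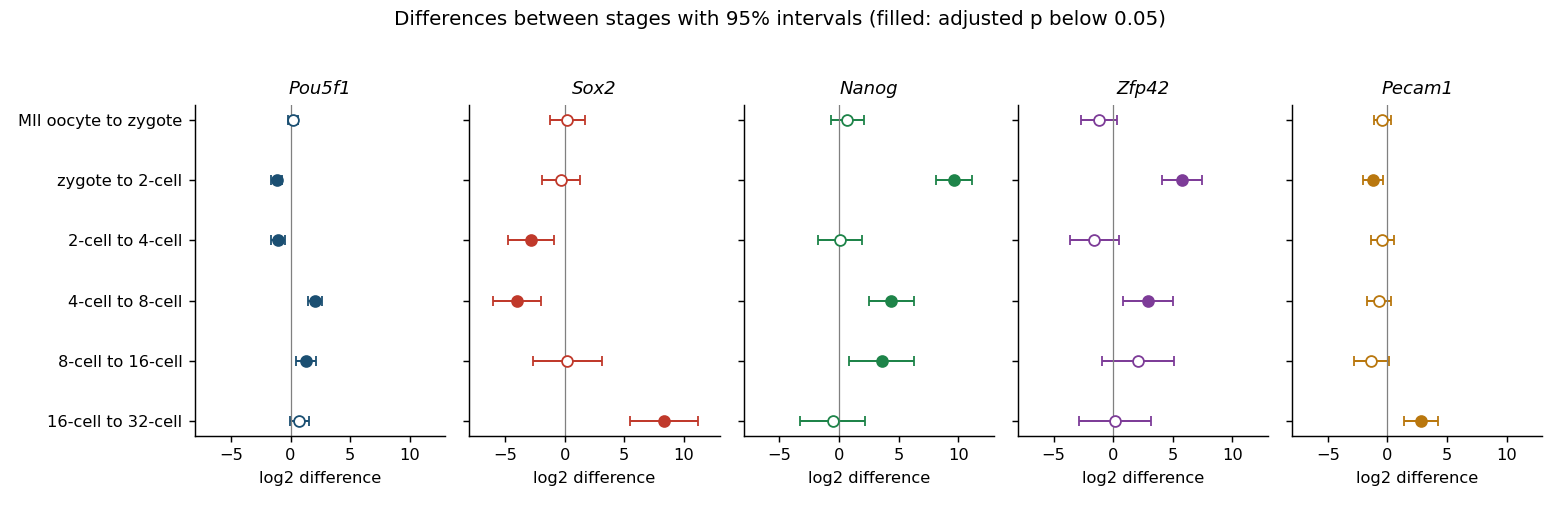
Difference between the means of successive stages for each gene (log2), with a 95% interval by the normal approximation from the limma SE. Filled symbols passed at an adjusted p below 0.05. Nanog and Zfp42 rose at 2 and 8 cells, and Pou5f1 fell to 4 cells and rose to 8 and 16 cells relative to the control genes. Sox2 fell to 8 cells and rose by 8.32 between the dissected embryos of 16 and 32 cells.

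Of 9 other genes of the pluripotent state, 8 rose and 1 fell between zygotes and the 2-cell stage, led by Esrrb, an orphan nuclear receptor, with 13.72 (SE 1.08, limma adjusted p = 2.05e-16), and Fgf4, a growth factor made by the epiblast, with 8.99 (SE 1.28, adjusted p = 1.76e-08). Their median difference was 3.71, beside −0.33 over all genes. In the same step 4 of 10 trophectoderm genes rose and 2 fell. Between 4 and 8 cells none of the 9 passed, while 5 of the 10 trophectoderm genes rose, led by Cdx2 with 8.99 (SE 1.26, adjusted p = 2.90e-08) and Gata3 with 7.97 (SE 1.15, adjusted p = 5.25e-08), transcription factors of that lineage. Between 16 and 32 cells, where Sox2 and Pecam1 rose, 2 of the 9 pluripotency genes rose, Klf2 by 2.63 (SE 0.80) and Trim28 by 0.91 (SE 0.31), and Dppa3 fell by 1.39 (SE 0.27). In the same step 1 of 3 primitive endoderm genes rose (Sox17, by 7.56, SE 2.10, adjusted p = 0.0106), and 2 of 10 trophectoderm genes fell, Gata3 (−7.15, SE 1.66) and Cdx2 (−5.99, SE 1.82). From MII oocytes to the late embryos 7 of the 9 rose and 1, Dppa3, fell, and all 3 oocyte and germ line genes, Dazl, ZP3 and Brdt, fell.

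The 76 late samples came from 2 embryos of the 16-cell and 7 of the 32-cell stage, and 20 and 32 of them were single blastomeres. The 16-cell embryos were sampled with 17 to 18 cells each by their labels. The 7 embryos of the 32-cell stage gave 4 to 25 cells each, 87 in all, so many of their cells were not sampled. Pou5f1, Nanog and Zfp42 were detected in each of the 76. Sox2 was detected in 6 of 13 samples of 16-cell embryo 4 and in 2 of 13 of embryo 5. At 32 cells it was detected in 9 of 12 samples of embryo 1, 9 of 10 of embryo 8, 7 of 9 of embryo 9, 4 of 5 of embryo 10, 3 of 3 of embryo 11, 4 of 5 of embryo 12 and 4 of 6 of embryo 13. All 7 embryos thus held Sox2 cells, and 6 of them also held samples without a signal. Pecam1 was missing from 3 samples of embryo 1, 2 of embryo 8, 3 of embryo 9 and 2 of embryo 13, and from none of embryos 10, 11 and 12. Among single blastomeres alone the shares were alike, with Sox2 in 6 of 20 at 16 cells and 27 of 32 at 32 cells, and Pecam1 in 16 of 20 and 26 of 32.

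**Figure D3:**
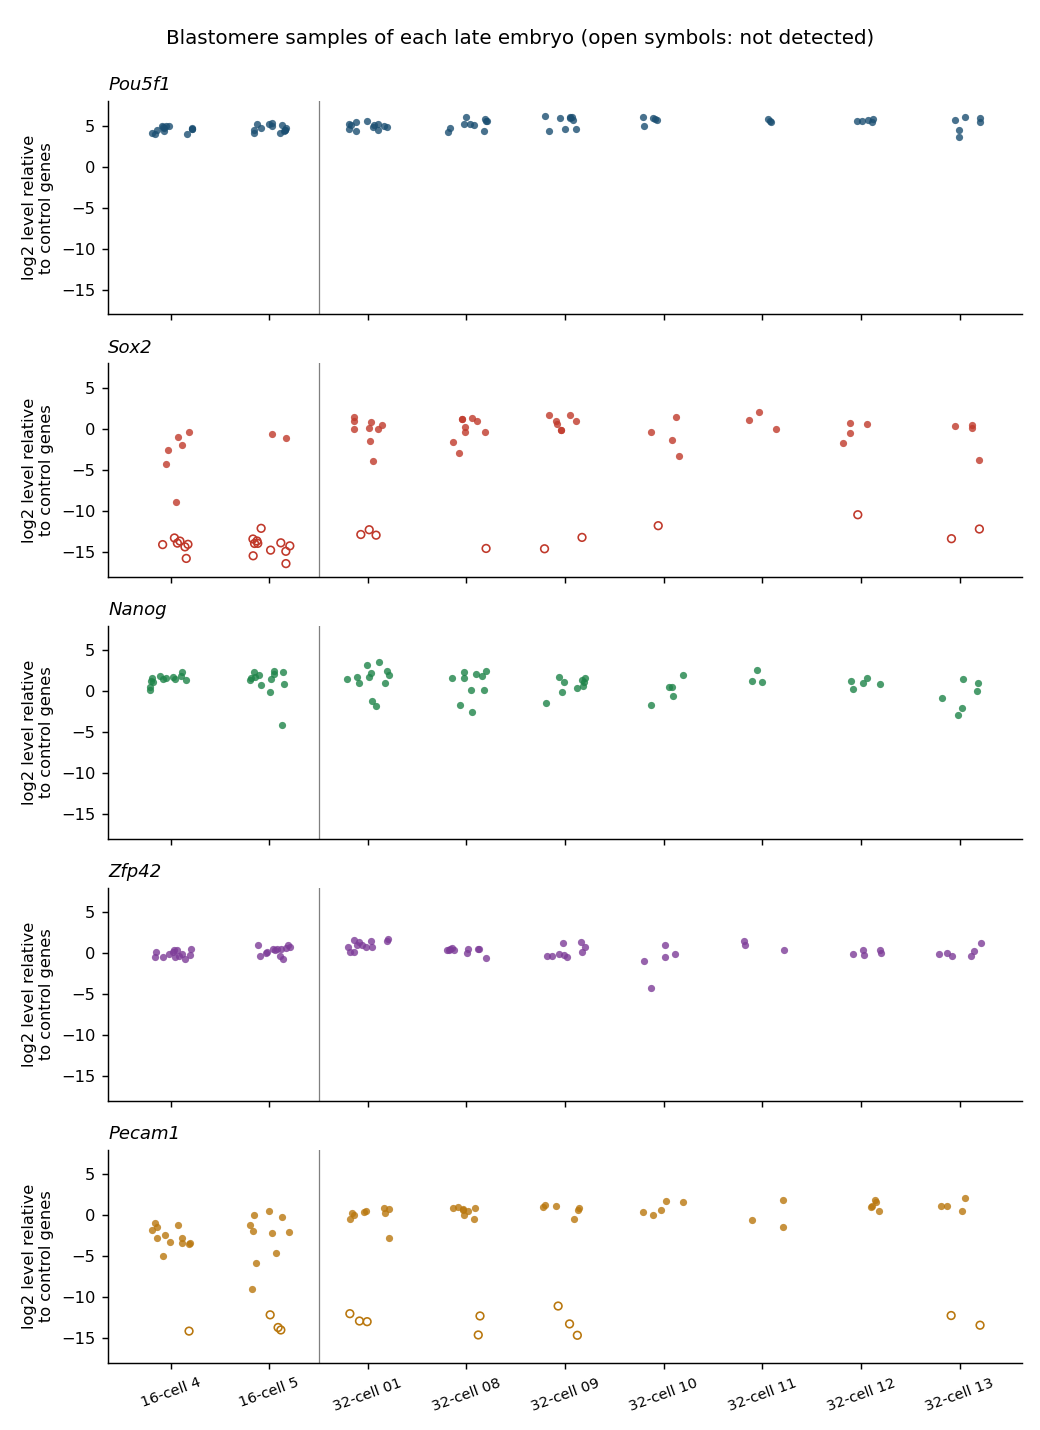
Level of each gene in the blastomere samples of the 2 embryos of the 16-cell and the 7 of the 32-cell stage (log2, relative to the control genes), numbered as in the labels; open symbols are samples in which the gene was not detected. Sox2 and Pecam1 fall into samples with and without a signal within most embryos, whereas Pou5f1 stays between 3.64 and 6.18.

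The Ct of the control genes, which rises as template falls, was compared between samples with and without a signal. At 32 cells the mean Ct of the control genes ran from 13.8 to 20.2 in samples with Sox2 and from 15.4 to 19.5 in samples without it, with medians of 17.9 and 17.1. For Pecam1 these ran from 13.8 to 20.2 and from 15.4 to 19.0, with medians of 17.9 and 17.1. At 16 cells the medians were 15.6 with Sox2 and 16.0 without it. The 4 samples without Pecam1 at 16 cells ran from 15.9 to 17.9 with a median of 16.2, toward the low-template end of the 22 with it (13.6 to 17.6, median 15.8). The part of template amount in the missing signals was not tested. Sox2 and Pecam1 were found together in 8 of 26 samples at 16 cells, where Pecam1 was found alone in 14, Sox2 alone in 0 and neither in 4. At 32 cells both were found in 37 of 50, each alone in 3, and neither in 7.

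Within embryos, Sox2 and Pecam1 followed each other most closely of the 10 pairs (Spearman rho 0.61 over 76 samples after each embryo was centred on its mean), ahead of Pou5f1 and Pecam1 (rho 0.59). The Sox2 and Pecam1 pair was positive in 7 of 9 embryos. It gave 0.29 at 16 cells, where Pou5f1 and Pecam1 gave 0.61, and 0.75 at 32 cells, so its lead rests on the 32-cell samples. Nanog correlated with Pecam1 at 0.47, with Pou5f1 at 0.47, with Zfp42 at 0.44 and with Sox2 at 0.31, and the Pou5f1 and Nanog coefficient was positive in 9 of 9 embryos. Zfp42 and Sox2, with rho 0.21, and Zfp42 and Pou5f1, also 0.21, were the loosest pairs. These coefficients describe the samples: cells of an embryo are not independent, and each value shares its sample's control genes and template amount.

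The genes most like each member in the late samples were Esrrb (rho 0.70), Tbx3 (0.67), a T-box factor, and Setd1a (0.63), a histone H3 methyltransferase, for Pou5f1. For Sox2 they were Pdgfra (0.68), a receptor used as a mark of primitive endoderm, Tet1 (0.67), which oxidises methylated cytosine, and Esrrb (0.66). For Pecam1 they were the same 3 genes, Pdgfra (0.79), Esrrb (0.72) and Tet1 (0.71). For Nanog they were the histone deacetylase gene Hdac1 (0.66), the corepressor gene Trim28 (0.60) and Klf2 (0.52), a Krüppel-like factor. For Zfp42 they were Trim28 (0.51), Prdm4 (0.43) and Suz12 (0.39), a subunit of Polycomb repressive complex 2. By the means of the 8 stages the nearest genes were Jarid2 (Pearson r 0.93) and Krt8 (0.92) to Pou5f1, Phf2 (0.90) and Setdb1 (0.89) to Sox2, Tbx3 (0.98) and Eif1a (0.93) to Nanog, Tbx3 (0.97) and Krt19 (0.93) to Zfp42, and Scmh1 (0.95) and Setdb1 (0.94) to Pecam1.

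All 9 other pluripotency genes were positively correlated within embryos with each of Pou5f1, Sox2, Nanog and Pecam1, and 8 of 9 with Zfp42. The median rho was 0.54 for Pou5f1, 0.55 for Sox2, 0.46 for Nanog, 0.62 for Pecam1 and 0.24 for Zfp42, beside medians between 0.06 and 0.21 over 148 genes without the 5 and the controls. Of the 10 trophectoderm genes, 2 were positive with Sox2, 1 with each of Pou5f1, Nanog and Pecam1 and 0 with Zfp42, and the lowest was Krt8, a keratin of the outer cells, with Pecam1 (−0.63) and Sox2 (−0.60). Hand1 had the highest rho of that list with each of the 5 genes, 0.37 to 0.54 with all but Zfp42 (−0.04). The 3 primitive endoderm genes were positive with all 5, from 0.04 (Gata6 with Nanog) to 0.79 (Pdgfra with Pecam1).

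The spread between sister cells was taken as the SD over single blastomeres of an embryo, for embryos with at least 3. Pou5f1 was among the most even genes at each stage. Its SD was 0.25 to 0.35 in the 4 embryos of the 8-cell stage, 0.35 and 0.44 at 16 cells and 0.12 to 0.62 at 32 cells, each below the median over all genes in the same embryo. Sox2 had 0.91 to 4.90 at 8 cells, 5.58 and 6.46 at 16 cells and 2.01 to 6.11 at 32 cells. The 0.91 is from 8-cell embryo 4, in which no blastomere had a Sox2 signal, so it is the spread of the control genes. Pecam1 had 0.34 to 1.64 at 8 cells and 3.88 and 5.76 at 16 cells. At 32 cells its SD was 6.12 in embryo 1 and 6.49 in embryo 8 but 0.65 in embryo 10 and 0.62 in embryo 12, where every cell had a signal. Nanog had 0.67 to 1.37 at 8 cells, 0.62 and 2.00 at 16 cells and 0.53 to 1.94 at 32 cells, and Zfp42 0.43 to 1.07, 0.43 and 0.49, and 0.34 to 2.29.

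On log2 of the SD, the 6 late embryos exceeded the 4 embryos of the 8-cell stage by 2.40 for Pecam1 (SE 0.67, limma adjusted p = 0.0225), the only one of the 5 genes to pass, where 15.4% of all genes did, each higher late. The call was lost without 8-cell embryo 5 (1.82, adjusted p = 0.126), without 32-cell embryo 1 (2.07, adjusted p = 0.0672) or 8 (2.16, adjusted p = 0.0549) and without both 16-cell embryos (2.23, adjusted p = 0.0558), and with levels below −10 set to −10 together with 0.1 added to each SD (1.92, adjusted p = 0.0503). The exact two-sided permutation test of the mean SD over 210 splits gave p = 0.114 for Pecam1 and 0.143 for Sox2. The difference for Sox2 was 1.19 (SE 0.50, adjusted p = 0.103), and 2.71 (adjusted p = 0.0359) with that floor and offset together. Without 8-cell embryo 4 it was 0.47. Pou5f1 differed by 0.38, Nanog by 0.35 and Zfp42 by −0.03, beside a median of 0.65 over all genes, and their 95% intervals held 0. Of the other lists, 2 of 9 pluripotency genes passed, Klf2 with 3.13 (SE 0.37) and Esrrb with 2.44 (SE 0.57), and 5 of 10 trophectoderm genes. So did 1 of 3 primitive endoderm genes, Sox17 with 2.07 (SE 0.65). Of 3 oocyte and germ line genes 2 passed, Brdt with 2.95 (SE 0.29) and ZP3 with 2.59 (SE 0.41).

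**Figure D4:**
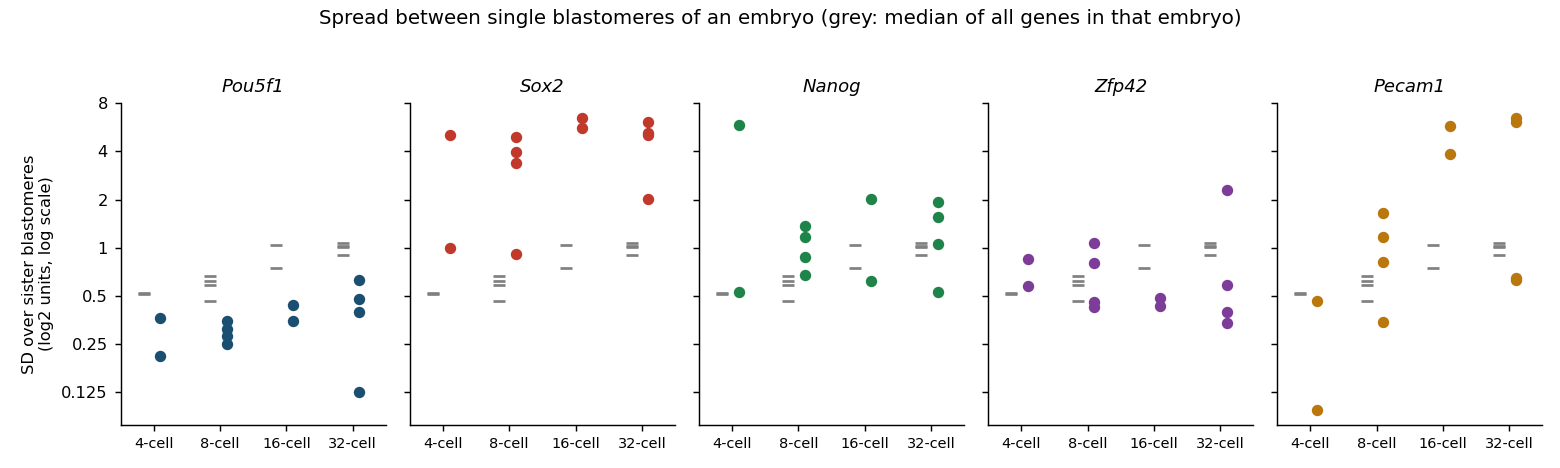
SD over the single blastomeres of each embryo with at least 3 of them (coloured points; log2 units on a logarithmic axis) and the median SD over all genes in the same embryos (grey dashes). Pou5f1 lay below the median in all 12 embryos, and Pecam1 ran from 0.34 to 1.64 at 8 cells and from 0.62 to 6.49 at 32 cells, where 2 of 4 embryos lay below 1.

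Whole embryos gave a second view of the same stages, with 3 embryos each. At 4 cells none of the 5 genes differed from the means of dissected embryos, where 2.56% of all genes did. At 8 cells Sox2 was −9.77, −6.99 and −6.15 in whole embryos, all above the 4 dissected embryos (−15.24 to −12.27), a difference of 5.63 (SE 1.13, limma adjusted p = 0.00114), where 5.13% of genes passed, each higher in whole embryos. At 16 cells it was −3.51, −3.50 and −1.73, above the dissected means of −12.20 and −9.10, a difference of 7.74 (SE 1.35, adjusted p = 7.65e-05), where 3.85% passed, each higher in whole embryos. Averaging blastomeres on the linear scale brought these to 2.45 (adjusted p = 0.405) and 0.30 (adjusted p = 0.981). The Sox2 call was also lost without whole 8-cell embryo 3 (4.88, adjusted p = 0.0552) and without dissected 16-cell embryo 5 (6.19, adjusted p = 0.0921). Pecam1 at 8 cells did not pass (1.72, SE 0.66, adjusted p = 0.157), but did with linear means (1.48, adjusted p = 0.0309).

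At 32 cells Pecam1 was −3.32, −4.23 and −4.34 in whole embryos and −3.83 to 1.24 in 7 dissected ones, so the ranges overlapped, and it was lower by −2.47 (SE 0.60, limma adjusted p = 7.82e-04). Pou5f1 was 4.71, 4.48 and 4.23 in whole embryos, below all dissected means (4.99 to 5.69), a difference of −0.93 (SE 0.35, adjusted p = 0.0252) that did not pass in the deposited table, without whole embryo 5 or 6, without Ssu72 or without Ube2e1 (adjusted p from 0.0684 to 0.696). At this stage 39.7% of all genes passed, 30.8% lower and 8.97% higher in whole embryos. Sox2, Nanog and Zfp42 differed by −0.42, −1.31 and 0.26 and did not pass (adjusted p = 0.769, 0.389 and 0.903), and with linear means Sox2 was lower by −2.88 (adjusted p = 0.00711). In the same comparison 5 of 10 trophectoderm genes were higher in whole embryos and none lower, led by Gata3 (9.30, SE 1.15) and Tspan8 (8.05, SE 1.39). By log-scale means, which cells without a signal pull down, these 5 genes were thus lower in the dissected 32-cell samples than in whole embryos. The part of this in the rise of Sox2 and Pecam1 between 16 and 32 cells was not tested.

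One isolated ICM and 1 isolated trophectoderm (TE) of the 32-cell stage were measured, without replicates. Sox2 was −0.17 in the ICM and −6.01 in the TE sample, and Pecam1 0.23 and −4.43. These differences, of 5.83 and 4.65, ranked 6 and 8 among all retained genes. Nanog was 1.38 and 0.08, Pou5f1 4.99 and 4.52, and Zfp42 0.11 and 0.09. The difference of Nanog was 1.30, of Pou5f1 0.47 and of Zfp42 0.03, beside a median of 0.47 over all genes. Cdx2 was 0.43 in the ICM and 1.84 in the TE sample and Gata3 1.53 and 2.73, so trophectoderm factors were detected in both. Hand1 and Krt19, also trophectoderm genes, were higher in the ICM sample, Hand1 at −3.66 against no detection and Krt19 at −4.95 against −7.90.

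**Figure D5:**
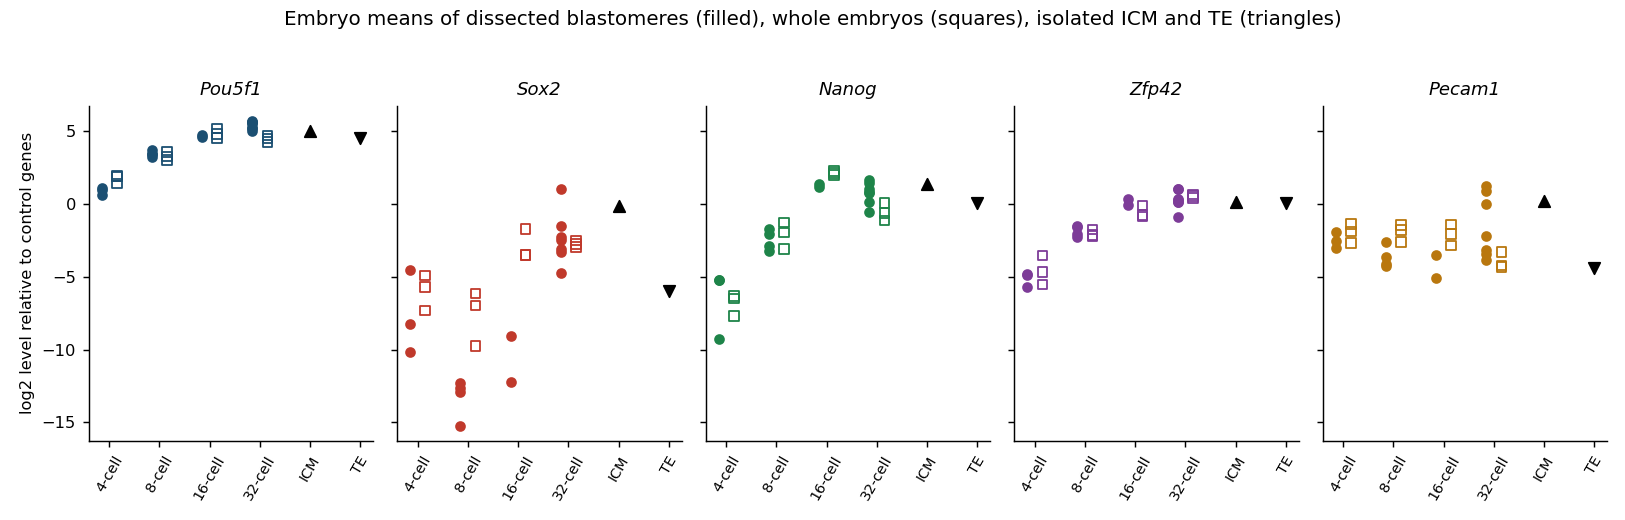
Embryo means of dissected blastomeres (filled circles), whole embryos (open squares) and the isolated ICM and TE samples (triangles, 1 each) for each gene, as log2 level relative to the control genes. Whole embryos lay above dissected means for Sox2 at 8 and 16 cells, and the ICM sample lay above the TE sample by 5.83 for Sox2 and 4.65 for Pecam1.

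All 5 genes were detected in the 10 samples of ESC RNA, which are dilutions in 3 series with 25 to 800 pg and no independent cultures, so no test was made. Pou5f1 lay between 4.62 and 5.13 and Pecam1 between −0.78 and 0.12, within the range of 32-cell blastomeres. Of 50 samples of the 32-cell stage, 33 exceeded the highest ESC sample in Pou5f1 and 31 in Pecam1. Sox2 was 1.47 to 2.27 in ESC RNA, Nanog 1.85 to 2.47 and Zfp42 2.42 to 2.87. No 32-cell sample was above that range in Sox2 and 46 were below it, and 3 were above and 40 below for Nanog. All 50 were below the lowest ESC sample in Zfp42, as they also were in the control gene Hnrnpr, and 49 of 50 exceeded the highest ESC sample in the control gene Ssu72. The control genes themselves therefore differed between ESC RNA and embryo cells. They also moved against their own mean between embryo groups. From zygotes to the 2-cell stage Hnrnpr rose by 0.85 and Ube2e1 fell by 1.01 (limma adjusted p = 1.34e-07 and 8.99e-09). From MII oocytes to late embryos Ssu72 rose by 0.96 (adjusted p = 1.75e-08). In whole 32-cell embryos Hnrnpr was lower by 1.11 and Ssu72 higher by 0.80 than in dissected ones (adjusted p = 1.07e-05 and 9.31e-04).

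The assays tracked the amount of RNA. From 200 to 25 pg the Ct of Pou5f1 rose by 1.08 cycles per halving, that of Sox2 by 1.13, Nanog 1.11, Zfp42 1.18 and Pecam1 0.98. From 800 to 32 pg the values were 1.11, 1.17, 1.18, 1.16 and 1.14. Relative to the control genes the level of a member moved by at most 0.61 within either series. In 3 samples of 200 pg the SD of the Ct was 0.17 for Pou5f1, 0.06 for Sox2, 0.08 for Nanog, 0.17 for Zfp42 and 0.14 for Pecam1. No repeats of a single blastomere exist, so the error of the assay at that amount of RNA was not measured.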

How the data were processed

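As deposited, the non-normalized values are cycle thresholds (Ct), a score in PCR cycles, for 192 assays in 189 samples, obtained after reverse transcription and preamplification of each sample in the same tube, and read on BioMark chips. A second table by the authors holds normalized values on a log2 scale and equals 30 minus the Ct relative to Gapdh, Hspa8 and Lmnb1 within 1.03e-08. All 3 are among the 36 assays marked as failed, so levels were computed here from the Ct relative to Hnrnpr, Ssu72 and Ube2e1, which the methods name. Stages, embryos and cell numbers came from the labels. The 3 samples that the study left out, the ICM and trophectoderm samples, late whole embryos and ESC RNA were kept out of the 168 main samples. qPCR gives no read depth; the Ct of the control genes stands for it.

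Blastomeres of an embryo are not independent and were averaged first; 11 blastomeres of unnamed 2-cell embryos formed 1 unit. The 58 units were fitted in limma 3.58.1 (lmFit, eBayes; R 4.3.3), two-sided, with Benjamini-Hochberg adjustment over the retained genes. Nothing states that oocytes or embryos came from separate females, so p-values measure the spread between units only. The SD over sister cells was fitted on log2 with weights of n minus 1. Both fits were run on simulated data with normal noise and no undetected values, which does not cover genes with many undetected samples. Other steps used Python 3.11.15, pandas 2.3.3 and scipy 1.17.1. Alternatives were other normalizations, control genes, values for undetected genes, averages, units and samples, and leaving out embryos. Genes named beside the members are, per member, the 3 with the highest rho within late embryos and the 2 with the highest r over stage means, and leading genes of fixed lists; Hand1, Krt8, Krt19 and Dppa3 where they stand out of a list were named after their values were seen. The members, lists and tests were chosen with earlier results of these data known.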

Additional observations from a re-analysis of the deposited data

Results flagged for a closer look

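Zfp42 varied between sister blastomeres of 32-cell embryo 10 with an SD of 2.29, where the nearest of the 3 other embryos of that stage had 0.586. The gap made up 0.872 of the range of the 4 embryos, above the 95% critical value of Dixon's test (0.829). It comes from 1 of 5 samples of that embryo, at −4.19, the lowest value of Zfp42 at 32 cells. Chance flags about 1 in 20 groups, and 35 groups were examined.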

How the results depend on the processing

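Of 23 differences of single genes that passed, 9 kept direction and side of the threshold under every alternative run. Of 37 that did not pass, 27 passed under no alternative, whatever their sign. Among differences that passed in neither setting, 55 alternative values had changed sign. Without normalization Pou5f1 reversed between 2 and 4 cells (0.23), 8 and 16 cells (−0.073) and MII oocytes and late embryos (−2.41); in the deposited table it reversed in the last 2 of these (−0.59 and −1.67). Between MII oocytes and late embryos Sox2 turned to 3.43 without undetected samples and 3.29 with linear means, and Pecam1 to 0.13 and 0.24. The count of the 5 genes that passed between 2 and 4 cells, 2, became 1 with the left-out samples and late whole embryos added and 0 without normalization. Between 8 and 16 cells, 2 became 1 in the deposited table (Pecam1, lower), without Ssu72 and without Ube2e1 (Pou5f1 in both), 0 with median normalization and without normalization, 4 without undetected samples, and 0 without either 16-cell embryo. Between 16 and 32 cells, 2 became 1 with samples added, in the deposited table, without undetected samples and without normalization, and 1 to 2 without a 16-cell embryo; with the embryo as a random block it stayed 2, with Pou5f1 in place of Pecam1. For whole embryos, leaving out embryos gave 0 to 1 at 8 cells, 0 to 1 at 16 cells and 1 to 2 at 32 cells; linear means gave 0 at 16 cells, and at 32 cells 2 became 1 in the deposited table, without Ssu72 and without Ube2e1. For the spread between sisters, 1 became 0 without the 16-cell embryos and in the permutation test, and 0 to 1 without single embryos. Of 35 neighbouring pairs, picked as close by the same means, 7 passed, and 12 did in the deposited table, 13 without undetected samples and 12 without normalization. The cause of these changes was not tested.

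With the replicate number as a replicate block, 0 of the 5 genes passed between MII oocytes and zygotes, as without it. Over 11 pairs of equal number the correlation of deviations ran from −0.292 to 0.272 (median −0.122), so no pairing by number was seen. This cannot exclude that some samples shared a female or a collection. The 16-cell stage has 2 embryos, and levels of undetected genes are set by the control genes. Alternatives added after seeing the data were the offset of 0.1 on the SD, the leave-outs of 3-cell and dissected embryos, the single blastomeres of the late stages and the repeats of the order of stages.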

Other observations

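The study left out 3 samples of the main stages, whose control genes had a mean Ct of 15.1 (an MII oocyte), 20.9 and 22.7 (blastomeres of 32-cell embryos 11 and 9). In the oocyte Zfp42 and Nanog were not detected and Pecam1 was −2.45, below the 11 other oocytes. In the blastomere of embryo 9 Pou5f1 was 8.05, Nanog 3.14 and Zfp42 3.85, and Sox2 and Pecam1 were not detected. In the blastomere of embryo 11 Sox2 was 3.47, Pecam1 3.07 and Nanog −3.13.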
